A study of Arabidopsis thaliana with 4 samples.

Results

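The SAUR61 to SAUR68 cluster is a run of small auxin up RNA genes on chromosome 1 of Arabidopsis thaliana, and its 8 loci are a small part of the 25418 loci that the probes of the array matched. The members were taken by locus (AT1G29420, AT1G29430, AT1G29440, AT1G29450, AT1G29460, AT1G29490, AT1G29500 and AT1G29510), and the cluster was chosen because its signals had been low after each volatile in these same arrays. The differences between a volatile and the solvent below are therefore a description of why the cluster was picked, and no test is attached to them. In the RefSeq table used for names, AT1G29490 carries SAUR68 as a synonym, while AT1G29510 has the symbol SAUR68 and the synonym SAUR67. SAUR68 stands here for AT1G29490, SAUR67 for AT1G29510 and SAUR66 for AT1G29500, and SAUR61 to SAUR65 follow the order of the first 5 loci.

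The study exposed wild-type seedlings of the Columbia-0 ecotype for 30 min to the vapour of a reactive carbonyl compound in a closed box, and measured their transcripts on one-colour Agilent arrays. All groups shared 3 days of cold, growth at 23 °C with 14 h light and 10 h dark, and treatment at 25 °C. The control group received acetonitrile, the solvent that the 3 treated groups also received. The treated groups received (E)-2-pentenal, 3-hepten-2-one or crotonaldehyde, each at a nominal 10 µM. Of these, 2 are unsaturated aldehydes that differ in chain length, crotonaldehyde being the shorter and (E)-2-pentenal the longer. The other, 3-hepten-2-one, is a ketone with a similar double bond. Where 3 values follow one another without names, they are for the longer aldehyde, the ketone and crotonaldehyde, in this order. Each group is 1 array of RNA pooled from at least 6 plants, so no group has a replicate, no p-value can be given, and the spread between plants or boxes is unknown. No age of the seedlings is stated in the labels.

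SAUR genes are the largest family of early auxin response genes. They encode small proteins, their transcripts appear within minutes of an auxin stimulus, and these transcripts are short-lived. SAUR proteins that have been studied, among them SAUR19 and SAUR63, bind and inhibit PP2C.D phosphatases. These phosphatases remove the activating phosphate from plasma membrane proton pumps, so SAUR proteins raise pump activity, which acidifies the cell wall and favours cell expansion. SAUR63 is the best studied gene of the cluster, and stabilised fusions of its protein lengthen hypocotyls and floral organs.

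The arrays were alike in the share of probes well above background, the scanner software's call that a spot is brighter than its surroundings (72.6% to 74.4%). The crotonaldehyde array was dimmer, with a 75th percentile of the signal of 1048 units against 1518 to 1667 on the others. It was also the only array on its slide, while the other 3 shared a slide, so for crotonaldehyde the slide and the treatment cannot be told apart. Signals are the scanner software's background-subtracted intensities in arbitrary units, and differences are log2 ratios after each array was divided by its own 75th percentile. Errors on differences are those the software assigns to the spots, propagated to the ratio; they cover 1 array's measurement and not biological variation. Probes spotted more than once on each array differed from their own mean log2 difference from acetonitrile with SDs of 0.08, 0.14 and 0.12.

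The 8 members had 9 probes, 1 spot each, and no spot carried an outlier flag. Of the 8 genes, 7 were well above background in acetonitrile, 6 on all 3 arrays of the shared slide, and 4 on all 4 arrays (SAUR63, SAUR64, SAUR66 and SAUR67). The genes are close relatives, so a probe of one may also bind transcripts of another. The sequences of the probes and transcripts were not analysed here, and the members are not counted as independent measurements.

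**Figure D1:**
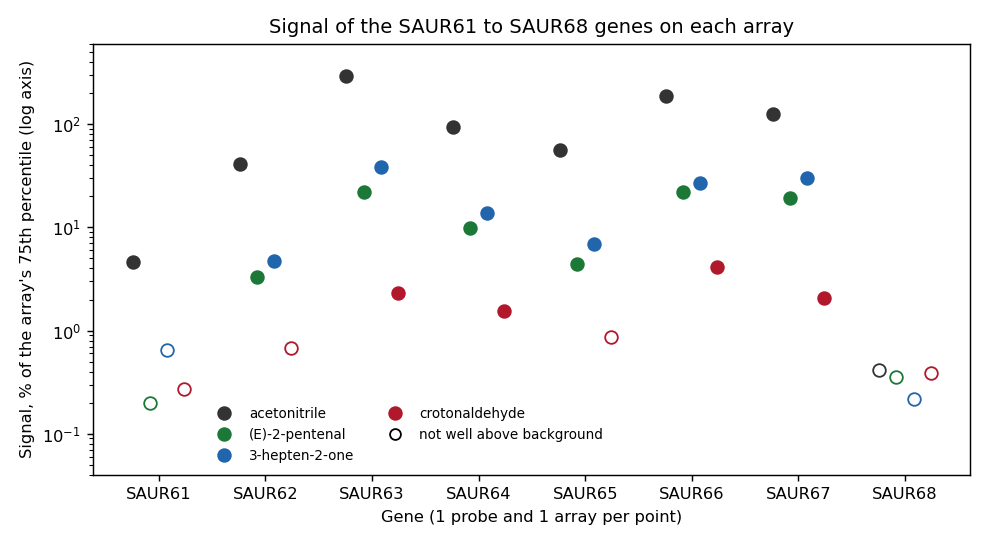
Signal of each member on each array, as a percentage of the array's 75th percentile on a log axis, with 1 point per array and open points for spots not well above background. SAUR63 stood at 293% in acetonitrile, 22.1% after (E)-2-pentenal, 38.3% after 3-hepten-2-one and 2.34% after crotonaldehyde, and the same order of the 4 arrays holds for SAUR62 to SAUR67.

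SAUR63 gave a signal of 4888 in acetonitrile, 336.0 after (E)-2-pentenal, 586 after 3-hepten-2-one and 24.5 after crotonaldehyde. The control array was the highest and the crotonaldehyde array the lowest, with the ketone above the longer aldehyde. The log2 difference from acetonitrile was −3.73 ± 0.20 after (E)-2-pentenal, −2.94 ± 0.20 after 3-hepten-2-one and −6.97 ± 0.26 after crotonaldehyde, that is 13.3-fold, 7.67-fold and 126-fold lower. Over the 18412 genes that all 4 arrays measured well above background, SAUR63 ranked 5, 40 and 5 from the lowest. Genes that fell to background on any array, such as SAUR19 to SAUR21 after crotonaldehyde, are not in this ranking. The ranks also use the contrasts on which the cluster was chosen, so nothing is read from them.

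The genes on either side of SAUR63 gave the same order of arrays. SAUR64 gave 1581 in acetonitrile, 149 after (E)-2-pentenal, 210 after 3-hepten-2-one and 16.2 after crotonaldehyde. Its differences were −3.28 ± 0.21, −2.79 ± 0.21 and −5.94 ± 0.31, or 9.68-fold, 6.92-fold and 61.2-fold lower. The RefSeq table also lists AT1G29435, a locus with no matched probe whose span contains SAUR63 and overlaps SAUR64, so transcripts of that locus could contribute to both signals.

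SAUR62, whose protein has been studied in pollen tube growth, gave 692 in acetonitrile, 50.05 after the longer aldehyde and 73.0 after the ketone. It was not well above background after crotonaldehyde, at 7.09. The differences were −3.65 ± 0.22 and −3.12 ± 0.21 for the 2 volatiles with a measured signal, and crotonaldehyde was at least 41.2-fold lower than the control. Here and below "at least" sets the bright array against the higher of the dim spot's own signal and the lowest signal called well above background on the dim array, which ranged from 10.6 to 15.8 units.

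SAUR65 resembled SAUR62, with 933 in acetonitrile, 67.6 after the longer aldehyde and 105 after the ketone, and with 9.02, not well above background, after crotonaldehyde. It differed by −3.65 ± 0.21 after the longer aldehyde and −3.03 ± 0.21 after the ketone, and was at least 55.5-fold lower after crotonaldehyde. SAUR61 was well above background in acetonitrile alone, at 77.5. Its signals after the volatiles, 2.99, 9.81 and 2.82, were not well above background, and it was at least 5.62-fold, 5.58-fold and 4.61-fold lower.

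SAUR66 and SAUR67 lie at the far end of the cluster, past the loci that interrupt it. SAUR66 gave 3111 in acetonitrile, 338 after (E)-2-pentenal, 408 after 3-hepten-2-one and 43.7 after crotonaldehyde. It was 8.38-fold, 7.0-fold and 44.7-fold lower than the control (log2 −3.07 ± 0.20, −2.81 ± 0.20 and −5.48 ± 0.22). SAUR66 had the smallest difference of the 4 genes measured after crotonaldehyde.

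SAUR67 gave 2077 in acetonitrile, 294 after (E)-2-pentenal, 463 after 3-hepten-2-one and 21.7 after crotonaldehyde. It was 6.43-fold, 4.12-fold and 60.3-fold lower (log2 −2.68 ± 0.20, −2.04 ± 0.20 and −5.91 ± 0.27). SAUR67 had the smallest difference of the 6 genes measured after both (E)-2-pentenal and 3-hepten-2-one, but not after crotonaldehyde. SAUR68 was not well above background on any array: its brighter probe over the 4 arrays read 6.99, 5.42, 3.29 and 4.08, its other probe 10.3, 2.86, 2.90 and 2.41, and no difference is given for it.

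Set side by side, the measured members kept between 7.55% and 15.6% of the control signal after the longer aldehyde (6 genes), between 11.5% and 24.3% after 3-hepten-2-one (6 genes), and between 0.80% and 2.24% after crotonaldehyde (4 genes). After (E)-2-pentenal the log2 differences of the 6 genes spanned 1.04, and those of SAUR62, SAUR63 and SAUR65 lay within 0.08 of each other, less than the spot error of about 0.20, so these 3 have no order. After crotonaldehyde the 4 genes spanned 1.49, from SAUR66 to SAUR63, against spot errors of 0.22 to 0.31, while SAUR64 and SAUR67 differed by less than those errors. Because RNA came from pooled plants and not from single cell types, fewer cells of a type and less RNA per cell cannot be told apart.

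The 4 members on all arrays had median log2 differences of −3.17, −2.80 and −5.92, where the median of all 18412 genes was −0.06, −0.07 and 0.01. All 4 were at least 2-fold lower after each volatile. Of all genes, 1.87%, 4.57% and 15.2% were at least 2-fold lower, and since the choice of the cluster used these contrasts nothing is read from the comparison. With bounds counted over the 19571 genes well above background in acetonitrile, 7 of 7 members were at least 2-fold lower after each volatile. Of all such genes, 2.78%, 5.44% and 17.7% were. This set asks for a signal in acetonitrile, the array where the members are high, and SAUR61 entered through that array alone. Nothing is read from this count either. The share of higher genes among those past 2-fold depended on the scaling: 57.2% for 3-hepten-2-one against 45.9% with the authors' scaled values, and 36.9% for crotonaldehyde against 58.7% with arrays centred on their medians. No scaling turned the direction of a member. The crotonaldehyde sizes depended on the background correction. With normexp correction, which here included an offset of 50 units added to every spot, the members' median was −4.00. The 4 members read 16.2 to 43.7 units on the crotonaldehyde array, so the offset by itself makes their differences smaller. Its part was not set apart from that of the background estimate.

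**Figure D2:**
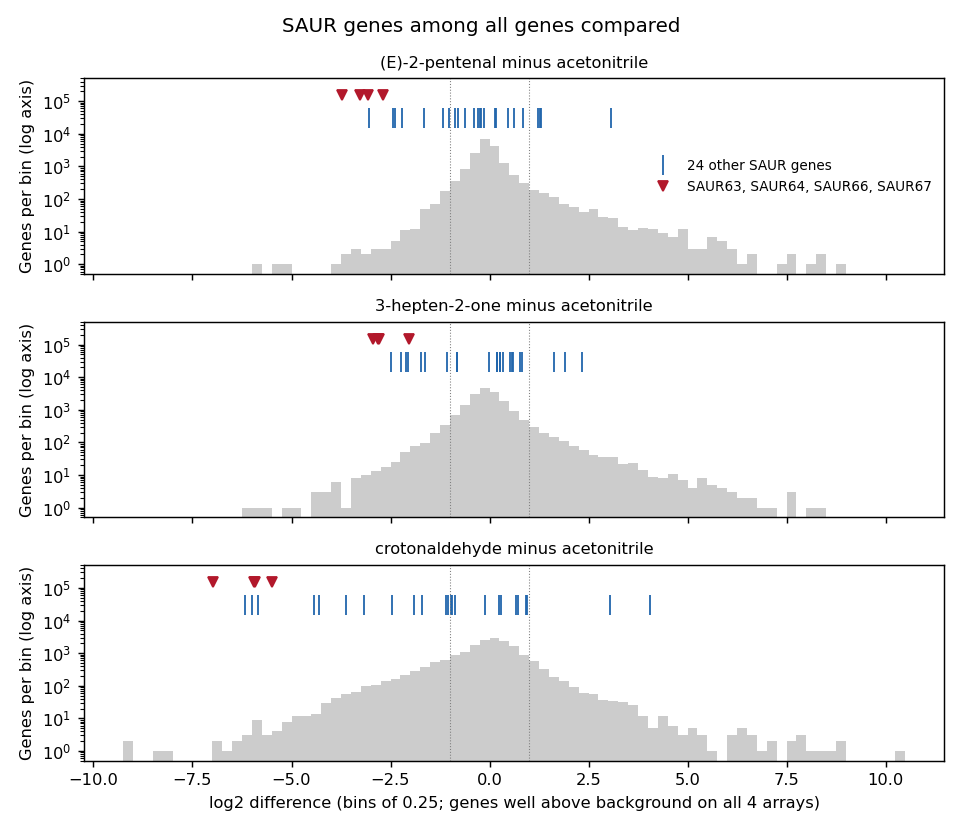
Distribution of the log2 difference from acetonitrile over the 18412 genes measured on all 4 arrays, in bins of 0.25 with a log count axis, for each volatile; triangles mark SAUR63, SAUR64, SAUR66 and SAUR67, ticks the 24 other SAUR genes, and dotted lines 2-fold. The 4 triangles lie on the lower side after each volatile, at medians of −3.17, −2.80 and −5.92, farther from the lowest gene after 3-hepten-2-one (−6.19). The 24 other SAUR genes drawn spread over both sides, and SAUR genes that were dim on any of the arrays, among them genes that fell to background, are not drawn.

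Between volatiles, the cluster was compared at the matched time and nominal dose in 3 pairs. After 3-hepten-2-one all 6 genes measured on both arrays were higher than after (E)-2-pentenal, by 0.53 ± 0.23 for SAUR62, 0.79 ± 0.20 for SAUR63, 0.48 ± 0.21 for SAUR64, 0.62 ± 0.22 for SAUR65, 0.26 ± 0.20 for SAUR66 and 0.64 ± 0.20 for SAUR67 on the log2 scale. None reached 2-fold, a size that 3.86% of all genes passed in that direction and 4.21% in the other. These 2 arrays shared a slide. The differences are no larger than the SD of 0.63 over all genes except for SAUR63 and SAUR67, and without replicates it is unknown whether a second pair of boxes would repeat them.

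After crotonaldehyde the members were lower than after the longer aldehyde, (E)-2-pentenal. The log2 difference was −3.24 ± 0.26 for SAUR63, −2.66 ± 0.31 for SAUR64, −2.42 ± 0.22 for SAUR66 and −3.23 ± 0.27 for SAUR67, and SAUR62 and SAUR65 were at least 3.27-fold and 4.42-fold lower. All 4 measured genes passed 2-fold, as did 13.6% of all genes in that direction. Under normexp correction with its offset of 50 units, the median moved from −2.95 to −1.39, and SAUR64, at −0.76, no longer reached 2-fold.

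Against 3-hepten-2-one, crotonaldehyde was lower by a median of −3.51 on the log2 scale. The differences were −4.03 ± 0.26 for SAUR63, −3.14 ± 0.31 for SAUR64, −2.68 ± 0.22 for SAUR66 and −3.87 ± 0.27 for SAUR67, and SAUR62 and SAUR65 were at least 4.73-fold and 6.79-fold lower. The 2-fold mark was passed by 15.8% of all genes in that direction. Under normexp correction with the same offset the median was −1.75. In both of these pairs the crotonaldehyde array is the one on the other slide, and the pairs share that array, so their values do not stand as separate evidence.

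Some markers of tissues that a seedling sample holds were lower after crotonaldehyde, while others stayed within 2-fold. Of all genes measured on 4 arrays, 15.2% were at least 2-fold lower after crotonaldehyde. Of 6 root markers, 5 were well above background on all arrays and 3 of these were at least 2-fold lower after crotonaldehyde, PYK10, a root beta-glucosidase of endoplasmic reticulum bodies, by −8.30. The summed signal of the root list, in multiples of the array's 75th percentile, was 18.5 in acetonitrile, 8.98 after (E)-2-pentenal, 32.1 after 3-hepten-2-one and 0.33 after crotonaldehyde, where CASP1 was not well above background. PYK10 made up most of that sum: without it the list summed to 0.69, 0.56, 0.63 and 0.27. COBL9 and RHD6 read −0.30 and −0.21 after crotonaldehyde, but both were dim. They gave 32.0 and 31.4 in acetonitrile and 16.4 and 17.0 after crotonaldehyde, where the lowest signal called well above background was 10.6. Genes this dim could not fall 2-fold there and still count as measured, so nothing is read from their small differences. Of 6 epidermis markers, all measured, PDF1 (−9.22) and FDH (−1.36) were at least 2-fold lower after crotonaldehyde, and the summed signal was 167 in acetonitrile, 190 after (E)-2-pentenal, 189 after 3-hepten-2-one and 95.0 after crotonaldehyde, or 38.3, 33.2, 38.4 and 15.5 without LTP1, the brightest. Of 5 leaf markers, LHCB2.1 alone was lower, at −3.35, with sums of 1106, 1100, 1290 and 1111. After (E)-2-pentenal PYK10 was at −1.08, and after 3-hepten-2-one CASP1 was at −1.08, while the other leaf, root and epidermis markers stayed within 2-fold after both. Of the 4 flower markers SEP3 was measured on all arrays. AP1 and AP3 were not well above background after 3-hepten-2-one and crotonaldehyde, nor AG in acetonitrile, and the sums were 0.13, 0.14, 0.09 and 0.06. After 3-hepten-2-one AP1 was at least 7.24-fold and AP3 at least 2.75-fold lower, and AG at least 4.72-fold higher. After crotonaldehyde these bounds were 5.98-fold and 2.27-fold lower, and 2.30-fold higher. No marker was at 0 on any array. The part of tissue makeup in the members' differences was not tested.

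The measured loci between the members stayed within 2-fold of the control. Of 11 loci that the RefSeq table places between the members, 3 have a probe, and of these AT1G29465 read −0.53, −0.39 and −0.38 and AT1G29470 read −0.18, −0.32 and −0.34. The third, AT1G29480, was not well above background on any array. The nearest locus with a probe before the cluster, AT1G29418, read −0.16, 0.16 and 0.13. After it AT1G29520 read −0.61, −0.88 and −1.38, and AT1G29530 read 0.21, 0.46 and 0.36.

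AT1G29540, the next locus with a probe, gave 67.2 in acetonitrile, 21.0 after (E)-2-pentenal, 173 after 3-hepten-2-one and 14.7 after crotonaldehyde. It was therefore lower after both aldehydes (−1.54 and −1.52) and higher after the ketone (1.48), unlike any member. On the other side, beyond AT1G29418, COR413IM1, a cold-regulated chloroplast membrane gene, was lower after 3-hepten-2-one (−4.35) and stood at −0.46 after each aldehyde. COR314-TM2, another cold-regulated gene beside it, was also lower after the ketone (−1.10) and read 0.01 and 0.27 after the aldehydes. Both were named after their values were seen.

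**Figure D3:**
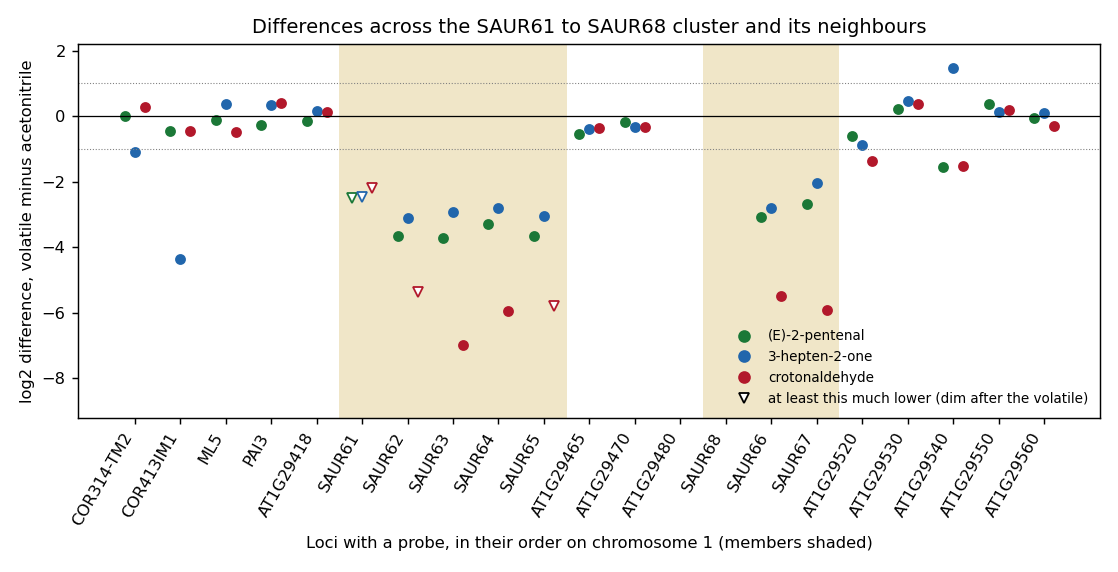
Log2 difference from acetonitrile for loci with a probe, in gene order along chromosome 1, with the members shaded, triangles for genes at least that much lower because the spot after the volatile was not well above background, and dotted lines at 2-fold. Members lie between −2.04 and −6.97 where measured, the interrupting loci AT1G29465 and AT1G29470 lie between −0.53 and −0.18, and no point is drawn for AT1G29480 and SAUR68, which were dim on all arrays.

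The genes whose profile over the 4 arrays was nearest to the mean of the 4 members were mostly other SAUR genes, by the root mean square distance of log2 values centred per gene, where the median gene lay at 2.17 and the members themselves at 0.11 to 0.33. SAUR23 (0.10), SAUR22 (0.30) and SAUR14 (0.32) were nearer than the farthest member. AT1G69570 (0.50), SAUR50 (0.61) and the PP2C.D phosphatase gene AT5G02760 (0.63) followed. SAUR23 gave 1800 in acetonitrile and 198, 292 and 15.6 after the volatiles, with differences of −3.05, −2.50 and −6.18. AT5G02760 read −2.81 and −5.02 after the aldehydes and was just short of 2-fold lower after the ketone, and AT1G69570 read −2.53, −1.24 and −5.34. The profiles rest on 4 arrays that the cluster was chosen on, and likeness says nothing of shared control.

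The family outside the cluster was not uniform. Of 67 other SAUR genes listed, 61 had a probe and 24 were well above background on all arrays. Of these 24, 7, 7 and 12 were at least 2-fold lower, where 1.87%, 4.57% and 15.2% of all genes were. In the other direction 4, 3 and 2 were higher (5 after crotonaldehyde with arrays centred on their medians), where 4.5%, 6.12% and 8.89% of all genes were. The medians of the 24 were −0.27, 0.19 and −1.01. Over the background corrections and scalings tried, 6 to 7, 5 to 8 and 9 to 15 of the 24 were lower. The crotonaldehyde median ranged from −1.16 to −0.40. The 24 leave out SAUR genes that fell to background after a volatile. Of 49 detected in acetonitrile, 24, 23 and 34 were at least 2-fold lower with bounds counted. Of all genes detected there, 2.78%, 5.44% and 17.7% were. This set favours genes high in acetonitrile.

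Those SAUR genes with another SAUR gene within 3 protein-coding genes were then set apart from those without, a split made after the values were seen. Of 25 such neighbours detected in acetonitrile, 18, 18 and 23 were at least 2-fold lower, bounds counted, and none was 2-fold higher. Of the 24 detected genes standing alone, 6, 5 and 11 were lower and 4, 4 and 2 higher. Of all genes detected in acetonitrile, 2.78%, 5.44% and 17.7% were at least 2-fold lower with bounds counted. Genes dim in acetonitrile are outside these counts, so a gene seen only after a volatile is not counted as higher. Among those standing alone, SAUR69 and SAUR55 were such genes, at least 3.91-fold and 4.37-fold higher after 3-hepten-2-one. In the SAUR19 to SAUR24 group, whose founding member SAUR19 promotes cell expansion, 5 of 5 detected genes were lower after each volatile, between −2.38 and −3.67 after (E)-2-pentenal and between −2.24 and −2.57 after 3-hepten-2-one. In the SAUR14 to SAUR16 group 3 of 3 were lower after each. Other groups were mixed: in the group from SAUR49 to SAUR5, 3, 5 and 5 of 5 were lower, and SAUR51 with SAUR52, like SAUR70 with SAUR76, had 0, 0 and 2 of 2 lower. The members of such a group can share probe targets, and no test was made of the split.

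**Figure D4:**
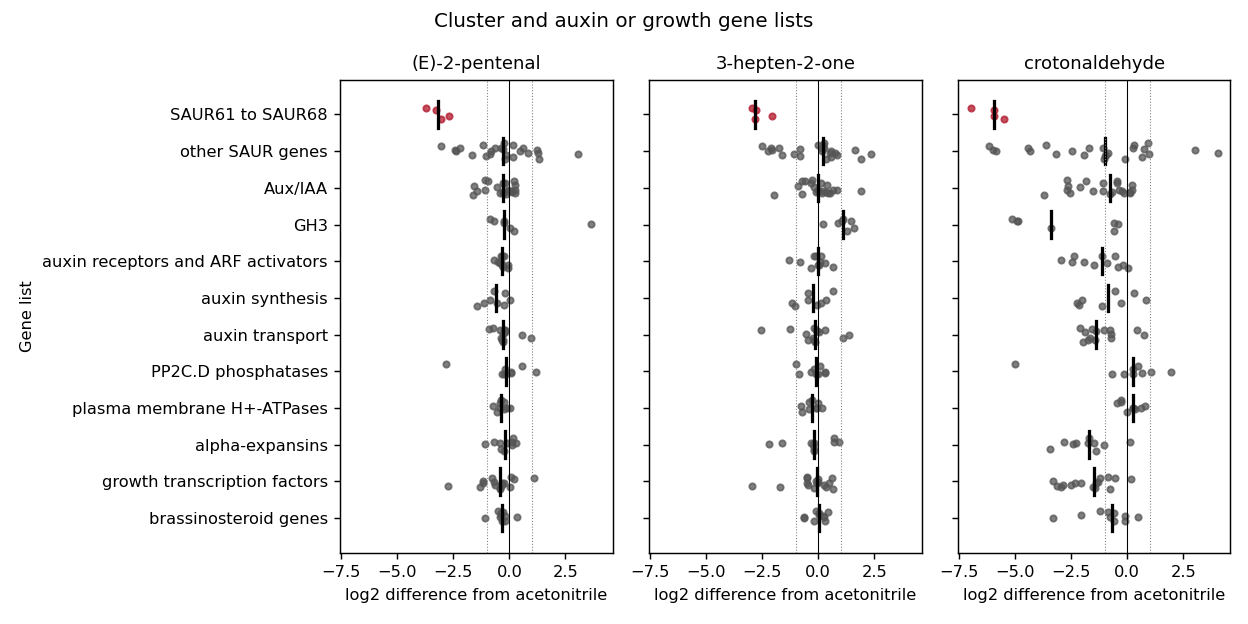
Log2 difference from acetonitrile for the 4 measured cluster genes (red) and for gene lists of auxin response and growth (grey), 1 point per gene well above background on all 4 arrays, with black bars at the list medians, dotted lines at 2-fold and the same axis for each volatile. The cluster median is −3.17, −2.80 and −5.92, against −0.26, 0.00 and −0.78 for Aux/IAA genes and −0.25, 1.08 and −3.41 for GH3 genes.

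Other early auxin response genes were described from lists chosen with earlier results of these arrays known. Beside the counts of this list and those below, 1.87%, 4.57% and 15.2% of all genes were at least 2-fold lower. The shares of all genes that were higher were 4.5%, 6.12% and 8.89%. Aux/IAA genes encode repressors that auxin removes. Of 21 measured, 5, 1 and 10 were at least 2-fold lower and 0, 1 and 0 higher. Under normexp correction 3 in place of 5 were lower after (E)-2-pentenal, and with the authors' scaled values 2 in place of 1 after 3-hepten-2-one. IAA6 read −1.61, −1.99 and −3.69, and IAA3 −1.56, −0.92 and −2.63. IAA17, also called AXR3, read −0.05, 1.91 and −1.50, so it was higher after the ketone and lower after crotonaldehyde. The median of the list after 3-hepten-2-one changed sign between scalings.

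GH3 genes, whose enzymes join auxin and other acids to amino acids, went in different directions after different volatiles. After 3-hepten-2-one 5 of 7 were at least 2-fold higher and none lower, after crotonaldehyde 4 were lower and none higher, and after (E)-2-pentenal 1 was higher. GH3.3 gave 1559 in acetonitrile, 785 after (E)-2-pentenal, 3032 after 3-hepten-2-one and 28.0 after crotonaldehyde. Its differences were −0.86, 1.08 and −5.13. GH3.6 read −0.25, 1.44 and −4.88, and GH3.5 0.05, 1.57 and −3.41. GH3.2 was higher after (E)-2-pentenal, at 3.62, and read 0.20 and −0.40 after the others. The median of the list after (E)-2-pentenal, −0.25, changed sign between scalings. Under normexp correction and with the authors' scaled values, 3 GH3 genes in place of 5 were 2-fold higher after 3-hepten-2-one.

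Genes acting before the response were lower mainly on the crotonaldehyde array. Of 11 receptor and activator genes, 0, 1 and 6 were at least 2-fold lower, among them the receptor genes AFB1 (−0.67, −1.29 and −2.95) and TIR1 (−0.39, 0.05 and −2.45). Of 8 auxin synthesis genes, 2, 2 and 4 were lower, and 0, 0 and 1 under normexp correction. YUC6, a flavin monooxygenase that makes auxin, read −1.13, −1.15 and −2.23. Of 14 auxin transport genes, 0, 2 and 9 were lower and 0, 2 and 0 higher. Under some other scalings or normexp correction, 1 was higher after a given volatile in place of these counts. PIN7, an auxin efflux carrier, read −0.90, −1.28 and −1.57, and PIN5 read −0.19, −2.55 and 0.43.

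Genes for the proteins that SAUR proteins act on gave few differences past 2-fold. None of the 9 plasma membrane H+-ATPase genes measured passed 2-fold after any volatile, except 1 higher after crotonaldehyde under quantile or median scaling, with medians of −0.37, −0.28 and 0.26. Of 9 PP2C.D phosphatase genes, 1, 0 and 1 were lower and 1, 0 and 2 higher. With the authors' scaled values, or the percentile taken over detected probes, 1 was lower after 3-hepten-2-one and 1 higher after crotonaldehyde. AT5G02760, the gene named above for its profile, was lower after (E)-2-pentenal and crotonaldehyde, and AT4G33920 was higher after the same aldehydes (1.19 and 1.96, with 0.28 after the ketone).

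Alpha-expansins, which loosen the cell wall, had 1, 2 and 9 of 10 genes lower and none higher, except 1 higher after 3-hepten-2-one under cyclic loess. Of all genes 1.87%, 4.57% and 15.2% were lower. EXPA11 read −1.11, −2.18 and −2.40, and EXPA1 −0.37, −0.18 and −3.45. Of 16 growth transcription factor genes, 4, 2 and 12 were lower and 1, 0 and 0 higher, with none higher under normexp correction. PAR1, a helix-loop-helix protein that restrains shade-induced growth and is itself induced by shade, gave 5030 in acetonitrile, 679 after (E)-2-pentenal, 600 after 3-hepten-2-one and 362 after crotonaldehyde, or −2.75, −2.94 and −3.13. PAR2 read −1.32, −1.71 and −2.97. Of 10 brassinosteroid genes, 1, 0 and 3 were lower and none higher, with none lower after (E)-2-pentenal under normexp correction, and with BR6OX2, a late enzyme of the pathway, at −1.11, −0.64 and −3.31.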

How the data were processed

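Each of the 4 samples is 1 array. Intensity per spot, linear, is what the scanner files deposited by the authors contain. Agilent Feature Extraction, version 10.10.1.1 per the file headers and 9.1 per the submitters' processing notes, produced them. The processed signal is background-subtracted within an array, per the file headers. Flags the authors deposited, 0 or 1, say whether a spot is an outlier, saturated or well above background. The authors' deposited value table holds the same intensity times 1 constant per array.

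Outlier spots were left out (4 to 16 of 43803 non-control spots an array), spots of a probe averaged, and log2 of the signal taken minus the array's 75th percentile. No spot was saturated. Accessions were matched to loci through RefSeq's TAIR10.1 gene table, for names and gene order alone: 34476 spots matched 1 locus. A gene took its brightest probe. At least 2-fold was the rule for a difference, over the 18412 genes that every array measured well above background. With 1 array per group there is no test, and the number of arrays limits the precision. Volatiles were compared with acetonitrile and with each other.

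The members, lists and rules were chosen with earlier results of these data known. Named were the members, up to 3 genes of each list per volatile farthest from 0 past 2-fold (examples of them are printed), loci between and 5 on each side of the members, and the 6 genes nearest in profile. The SAUR genes printed by group or in the closing section, and the tissue markers, are also named. Protein identity and promoter letters of the members, planned as descriptions, were not analysed here. Steps were tested on simulated data. Python 3.11.15, numpy 2.4.6, pandas 2.3.3 and R 4.3.3 with limma 3.58.1 were used. Alternatives were other background correction, scalings, filters, probe rules, fold sizes and the authors' values; 2 were added after seeing the data (leaving crotonaldehyde out of the filter, and dim spots at their bound).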

Additional observations from a re-analysis of the deposited data

How the results depend on the processing

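Single members against acetonitrile kept their direction and their side of 2-fold in 128 of 128 values over 11 settings, and at 1.5-fold and 4-fold too (152 of 152 over 13 settings). Of 132 counts and medians of the members none was reversed, and 123 stayed within the tolerance used (counts within 1.5 times, medians of the same direction and side of 2-fold): among these, some counts of 4 became 6 with fewer arrays or no filter, and the crotonaldehyde against (E)-2-pentenal count became 3 under normexp. With no filter on dim probes, 7 members were past 2-fold after each volatile, as also with dim spots at their bound. Between 3-hepten-2-one and (E)-2-pentenal, 1 member passed with no filter and 2 at 1.5-fold; between crotonaldehyde and 3-hepten-2-one, 7 passed with no filter. Medians ranged from −3.46 to −2.77 for (E)-2-pentenal, from −2.92 to −2.49 for 3-hepten-2-one and from −6.07 to −4.00 for crotonaldehyde. All genes 2-fold lower numbered 345, 842 and 2801; normexp gave 213 and 530 for the first 2, no filter 934 and 1412, and dim spots at their bound 544 for the first. At 1.5-fold they were 1153, 2309 and 4343, and at 4-fold 33, 141 and 985. Between 3-hepten-2-one and (E)-2-pentenal 775 were lower, and 1239 with no filter, 1936 at 1.5-fold and 181 at 4-fold. For crotonaldehyde against (E)-2-pentenal the count was 2510, with 1530 under normexp, 4031 at 1.5-fold and 765 at 4-fold, and against 3-hepten-2-one 2903, with 4440 and 1114. Centring on medians moved the median of all genes after crotonaldehyde from 0.01 to 0.33. No paired analysis was possible because each group has 1 array. Signals near background limit SAUR61 after each volatile, and SAUR62 and SAUR65 after crotonaldehyde, to bounds and leave SAUR68 unmeasured. The cause of these changes was not tested.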

Other observations

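Several SAUR genes outside the cluster were higher after a volatile; they were named after their values were seen. SAUR48 gave 935 in acetonitrile, 7172 after (E)-2-pentenal, 4370 after 3-hepten-2-one and 1139 after crotonaldehyde, or 3.07, 2.35 and 0.95 on the log2 scale, the highest of the 24 measured SAUR genes after either of the first 2. SAUR35 gave 619, 1017, 964 and 6433, so that it was high on the crotonaldehyde array (4.05) and read 0.85 and 0.76 after the others. SAUR34 read 1.22, 1.62 and 3.03, above the control on each array. SAUR59 read 1.31 and 1.90 after the longer aldehyde and the ketone and −0.11 after crotonaldehyde.

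Among SAUR genes with no other within 3 protein-coding genes, SAUR75 was 1 of several lower after each volatile. SAUR75 gave 257 in acetonitrile, and 17.7 and 23.1 on the other arrays of the shared slide (−3.73 and −3.35). After crotonaldehyde it read 8.28, not well above background, at least 15.3-fold lower. SAUR57 was at least 7.46-fold, 9.74-fold and 8.05-fold lower. SAUR46 was at least 19.7-fold lower after (E)-2-pentenal and read −2.79 and −1.68 after the others. SAUR11 was at least 2.03-fold, 2.02-fold and 1.67-fold lower. Of the 24 detected genes standing alone, 4, 4 and 2 were 2-fold higher. SAUR76, which lies beside SAUR70, gave 595, 751, 818 and 18.8, so that it was near the control on the shared slide (0.47 and 0.58) and low on the crotonaldehyde array (−4.31).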
